A study of Mus musculus with 8 samples.

Results

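Mammalian mitochondria keep a small genome of their own, and the 37 genes encoded on chromosome MT were followed here in inguinal white adipose tissue (ING WAT) of mice at weaning and in young adulthood. The members were every transcript placed on chromosome MT, 13 protein genes, 2 ribosomal RNA (rRNA) genes and 22 transfer RNA (tRNA) genes, out of 38384 genes in all. In all, 4 C57BL/6j mice at postnatal day 21 (PN21, mice m1, m49, m138 and m145) were compared with 4 C57BL/6j mice at postnatal day 98 (PN98, mice m35, m106, m114 and m125), all without any transgene or treatment named in the labels. The labels give neither sex nor diet. In the breeding scheme of the study, female pups were killed at PN21, whereas males were weaned, later put on a purified or a western style diet and kept to PN98. Age can therefore not be told apart from diet in these mice. As for sex, the study reports epididymal fat, a depot of males, from its PN21 group. The sex of the sequenced mice cannot be checked from the labels. ING WAT is a subcutaneous fat depot, and RNA of the whole depot was sequenced after selection for poly(A) tails, so fewer cells of a type and less RNA per cell cannot be told apart.

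The mitochondrial genome is transcribed from both strands into long precursors. Most protein and rRNA genes are read from one strand, with tRNA genes standing between them like punctuation marks, and excision of the tRNAs frees the mRNAs and rRNAs on either side. Mature mitochondrial mRNAs receive short poly(A) tails, while mature tRNAs do not carry them as stable tails. The protein genes encode core subunits of respiratory complexes I, III, IV and V, the rRNAs form the mitochondrial ribosome, and the tRNAs serve translation inside the organelle. In brown and beige fat cells, which are rich in mitochondria, the respiratory chain feeds the heat production of uncoupling protein 1.

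The coordinates of all 37 transcripts in the deposited table equalled those of GENCODE vM21 on mm10 (GRCm38). Of the protein genes, 12 are coded on the plus strand and mt-Nd6 on the minus strand, and of the tRNA genes 14 are on the plus and 8 on the minus strand. Several members share bases, and these joints are shown because the values of such neighbours rest in part on the same sequence. In the lines that follow, written 5′ to 3′ on the coding strand, capitals mark the bases shared by the named pair. The first pair is mt-Atp8 and mt-Atp6, with 43 shared bases at MT:7927-7969, which hold the end of the first gene and the ATG of the second.
mt-Atp8, MT:7897-7969: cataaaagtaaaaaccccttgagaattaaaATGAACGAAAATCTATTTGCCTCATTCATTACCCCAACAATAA
mt-Atp6, MT:7927-7999: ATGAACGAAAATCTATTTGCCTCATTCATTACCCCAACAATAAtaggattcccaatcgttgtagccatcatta
The second pair is mt-Nd4l and mt-Nd4, with 7 shared bases at MT:10167-10173.
mt-Nd4l, MT:10137-10173: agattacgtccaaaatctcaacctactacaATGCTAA
mt-Nd4, MT:10167-10203: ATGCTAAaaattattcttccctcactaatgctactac

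Further pairs overlap on opposite strands. The 3′ ends of mt-Nd5 (plus strand) and mt-Nd6 (minus strand) share 14 bases at MT:13552-13565, and the end of mt-Co1 (plus strand) shares 3 bases at MT:6870-6872 with mt-Ts1 (minus strand), one of the tRNA genes for serine. The libraries were made with a directional kit, but whether strand was used in the quantification is not given in the sources used here, so reads from the opposite strand cannot be told apart from those of the gene itself. The whole of mt-Ts1 is shown, with mt-Te, the tRNA gene for glutamate, since these hold the highest values of all members.
mt-Nd5, MT:13522-13565: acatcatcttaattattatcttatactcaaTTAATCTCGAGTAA
mt-Nd6, MT:13552-13595: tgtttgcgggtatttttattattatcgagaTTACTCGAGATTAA
mt-Co1, MT:6840-6872: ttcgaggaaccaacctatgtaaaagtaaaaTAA
mt-Ts1, MT:6870-6938: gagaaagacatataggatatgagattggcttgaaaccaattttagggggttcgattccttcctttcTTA
mt-Te, MT:14071-14139: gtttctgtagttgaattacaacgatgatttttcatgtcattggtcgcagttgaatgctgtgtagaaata

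Of the 13 protein genes, 10 end on a whole codon. The others, mt-Co3, mt-Nd4 and mt-Cytb, end 1 base past the last whole codon, a T that the poly(A) tail is known to complete to a stop codon. This T is in capitals at the end of their last bases.
mt-Co3, MT:9378-9390: tgatgaggatctT
mt-Nd4, MT:11532-11544: ggcctgacaataT
mt-Cytb, MT:15276-15288: aaattatatccaT

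Expression was given as FPKM, the fragments of a transcript divided by its length and by the mapped fragments of the library. Read counts are not part of the values, and the depth behind them is unknown. Values at PN21 are given in the order m1, m49, m138 and m145, and values at PN98 in the order m35, m106, m114 and m125. Fold changes are log2 of PN98 over PN21 with their standard error (SE), from limma on log2(FPKM), and p-values were adjusted across 23138 transcripts by the Benjamini-Hochberg procedure. The labels give each sample as a mouse of its own.

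No mitochondrially encoded gene passed the test between PN21 and PN98. The 4 mice at PN98 lay far apart, with m106 and m125 high and m35 and m114 low. Of the 37 members, 29 were above 0 in all 8 mice and passed the expression filter, and 0 of these had an adjusted p below 0.05 in limma, against 1.33% of all transcripts tested, or 0.618% counted in the lower direction alone. At an unadjusted p below 0.05 there were 2 of 29, mt-Rnr2 and mt-Tr, both lower at PN98, against 21.7% of all transcripts tested. The fold range between the highest and the lowest mouse was wider at PN98 than at PN21 in 28 of the 29 members, against 57.4% of transcripts. In 28 of the 29 members both m106 and m125 lay above both m35 and m114, against 11.8% of transcripts. The exceptions were mt-Tt for the fold range and mt-Tp for the order of the mice. Because members of one genome come from the same precursors, these counts are not independent of each other.

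The classes of members had different medians. The median log2 fold change was 0.09 over the 9 protein genes tested, -1.13 over both rRNA genes, -0.997 over the 11 plus-strand tRNA genes and 0.19 over the 7 minus-strand tRNA genes. Over all nuclear transcripts tested the median was -0.24, and 63.5% of all transcripts tested had a log2 fold change below 0. Scaling each mouse to an equal sum of nuclear FPKM moved the median of all transcripts from -0.24 to 0.04, and a median of ratios moved it to -0.03, so log2 fold changes near 0 take their sign from the scaling. Leaving out m106 and m125, an alternative added after the data were seen, also gave 0 members with an adjusted p below 0.05, moved mt-Rnr2 to -2.56 (adjusted p = 0.0829) and turned mt-Nd4 to -0.41 and mt-Cytb to -0.71.

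**Figure D1:**
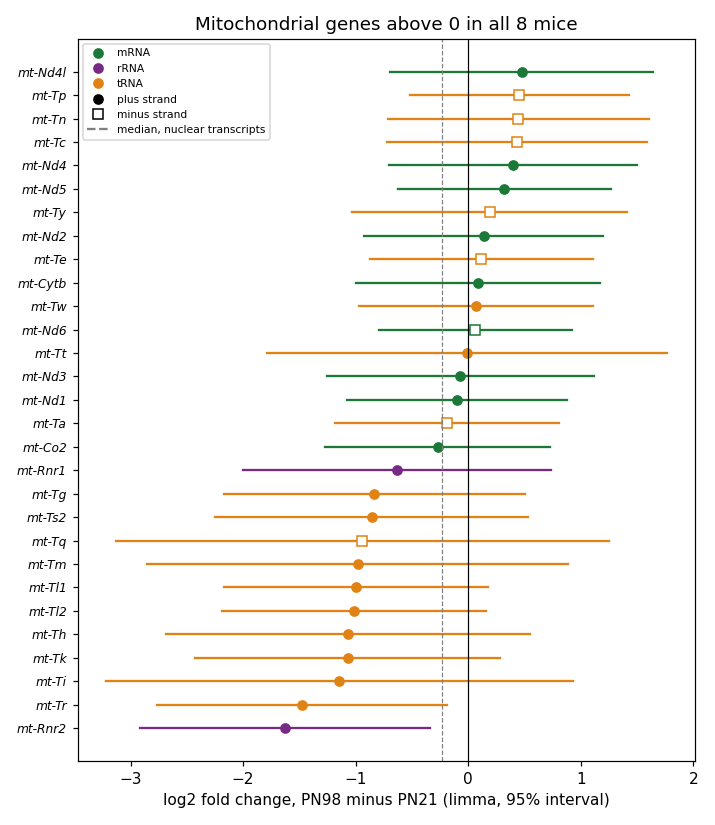
Log2 fold change (x axis, PN98 minus PN21) of the 29 mitochondrial genes above 0 in all 8 mice, with the 95% interval of limma as a bar, coloured by class and with open squares for the minus strand. Protein genes and most minus-strand tRNA genes lie around 0, mt-Rnr2 and mt-Tr are the lowest at -1.63 and -1.48, and the dashed line at -0.24 is the median of the nuclear transcripts tested.

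Complex I, the NADH dehydrogenase, has 7 subunits coded in mitochondria, and all 7 were above 0 in every mouse. For mt-Nd1, FPKM was 5193, 7515, 5435 and 5051 at PN21 and 2695, 7943, 4042 and 9401 at PN98. For mt-Nd2, values were 4792, 5855, 4778 and 4198 at PN21 and 2451, 9501, 3969 and 8881 at PN98. In both genes m106 and m125 exceeded every PN21 mouse and m35 and m114 fell below every PN21 mouse, so the ages overlapped from both sides. The mt-Nd1 log2 fold change was -0.10 (SE 0.42, adjusted p = 0.895). For mt-Nd2 it was 0.14 (SE 0.45, adjusted p = 0.863).

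The small subunit gene mt-Nd3 had 2766, 5121, 3645 and 4444 FPKM at PN21 and 1771, 6152, 2337 and 7379 at PN98. For mt-Nd4l, FPKM was 2193, 2441, 2625 and 1221 against 1382, 4893, 1909.8 and 4940.1. Its overlapping neighbour mt-Nd4 had 5465, 6049, 5807 and 4165 against 3156, 12100.2, 5077 and 12458. Again m106 and m125 were above all PN21 mice in these 3 genes, and m35 was the lowest of the PN98 mice. The log2 fold change was -0.07 (SE 0.51, adjusted p = 0.939) for mt-Nd3. It was 0.47 (SE 0.50, adjusted p = 0.564) for mt-Nd4l. It was 0.40 (SE 0.47, adjusted p = 0.607) for mt-Nd4.

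The gene for the large subunit mt-Nd5 had 2325, 2771, 2429 and 2179 FPKM at PN21 and 1586, 4912, 2144 and 4981 at PN98, and the log2 fold change was 0.32 (SE 0.41, adjusted p = 0.630). The values of m106 and m125 were above and those of m35 and m114 below every PN21 mouse. For mt-Nd6, the protein gene of the minus strand, FPKM was 9683, 9848, 7359 and 14803 at PN21 and 6712, 13203, 7981 and 17421 at PN98. Here m145 was the highest PN21 mouse, whereas m145 was the lowest PN21 mouse for mt-Nd1, mt-Nd2, mt-Nd4, mt-Nd4l, mt-Nd5 and mt-Cytb. The mt-Nd6 log2 fold change was 0.06 (SE 0.37, adjusted p = 0.928).

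Complex III holds a single mitochondrial subunit, cytochrome b. Its gene mt-Cytb had 9952, 11591, 10224 and 7924 FPKM at PN21 and 4803, 17874, 7522 and 18487 at PN98. The PN98 values lay on both sides of the PN21 values, and the log2 fold change was 0.09 (SE 0.46, adjusted p = 0.917). Complex IV, cytochrome c oxidase, has 3 catalytic core subunits from this genome, of which mt-Co2 was above 0 in every mouse. For mt-Co2, FPKM was 17308, 23562, 17755 and 22414 at PN21 and 8685, 24757, 11526 and 30886 at PN98, with the same order of PN98 mice, and the log2 fold change was -0.27 (SE 0.43, adjusted p = 0.705).

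Per length, mt-Co2 was the highest at PN21 of the 9 protein genes above 0 in all mice, with 20260 ± 3191 FPKM (SD, n = 4). Its lowest mouse exceeded the highest mouse of the next of these 9, mt-Nd6, with 10424 ± 3133 FPKM. The 4 protein genes listed at 0 in some PN98 mice are left out of this order. Of these, mt-Atp6 was above mt-Co2 in m1, m49 and m138 and below it in m145. The ranges of mt-Nd6 and mt-Cytb (9923 ± 1513) overlapped. The mt-Cytb values lay above those of mt-Nd1 (5799 ± 1155) in every mouse, and mt-Nd1, mt-Nd4 (5372 ± 839), mt-Nd2 (4906 ± 690) and mt-Nd3 (3994 ± 1017) overlapped with their neighbours in this order. The lowest levels were those of mt-Nd5 (2426 ± 252) and mt-Nd4l (2120 ± 625), which also overlapped. At PN98 the means were 18964 ± 10594 FPKM for mt-Co2, 12171 ± 7031 for mt-Cytb and 11329 ± 4938 for mt-Nd6, and the lowest was again mt-Nd4l with 3281 ± 1901. Summed over the 9 genes, FPKM was 59678, 74754, 60057 and 66399 at PN21 and 33241, 101335, 46508 and 114834 at PN98, which gave 65222 ± 7063 and 73980 ± 40132 (SD, n = 4 each).

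As a share of the summed FPKM of these 9 genes, which does not depend on the scaling of a mouse, 7 of the 9 overlapped between the ages. The exceptions were mt-Co2, with 29.0% to 33.8% at PN21 and 24.4% to 26.9% at PN98, and mt-Nd5, with 3.28% to 4.04% at PN21 and 4.34% to 4.85% at PN98. Both were picked out after their values were seen, and among all transcripts tested 14.2% had FPKM that did not overlap between the ages. The plot of FPKM by gene shows the wide and ordered spread of the PN98 mice.

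**Figure D2:**
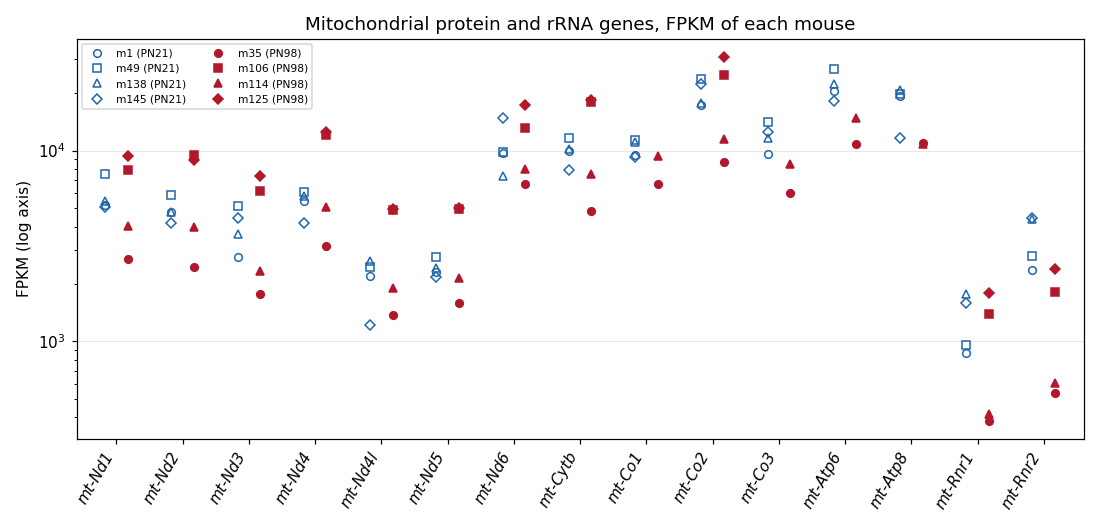
FPKM on a log axis (y) of the 13 protein genes and 2 rRNA genes (x) in each mouse, with open blue symbols for PN21 and filled red symbols for PN98. For most protein genes m106 and m125 lie at the top and m35 and m114 at the bottom. Values listed at 0 in m106 and m125 (mt-Co1, mt-Co3, mt-Atp6 and mt-Atp8) cannot be drawn on a log axis and are left out.

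The protein genes mt-Co1, mt-Co3, mt-Atp6 and mt-Atp8 and the tRNA gene mt-Ts1 had an entry of 0 in m106 and m125, the PN98 mice with the highest values of the other protein genes. For mt-Co1, the catalytic subunit of complex IV, FPKM was 9518, 11372, 11121 and 9274 at PN21 and 6678, 0, 9317 and 0 at PN98. For mt-Co3, another core subunit of that complex, FPKM was 9540.4, 14186, 11586 and 12498 at PN21 and 6007, 0, 8520.4 and 0 at PN98. The 5 genes form 2 blocks of overlapping neighbours, mt-Co1 with mt-Ts1 and mt-Atp8 with mt-Atp6 and mt-Co3, where mt-Atp6 and mt-Co3 share 1 base. An exact 0 beside high FPKM in neighbouring genes of the same mouse may be a missing estimate, which was not tested, and these entries were treated as missing.

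The ATP synthase genes behaved alike. For mt-Atp6, FPKM was 20600, 26743, 22418 and 18241 at PN21 and 10773, 0, 14844 and 0 at PN98. For mt-Atp8, which overlaps it, FPKM was 19391, 19697, 20814 and 11608 at PN21 and 11001, 0, 10757 and 0 at PN98. In all 4 protein genes the PN98 values above 0 come from m35 and m114, the mice that were low for the other members too, and in mt-Co3, mt-Atp6 and mt-Atp8 these lay below every PN21 mouse. With 0 as missing, so 4 mice against 2, limma gave log2 fold changes of -0.38 (SE 0.25, adjusted p = 0.403) for mt-Co1 and -0.73 (SE 0.28, adjusted p = 0.238) for mt-Co3. It gave -0.78 (SE 0.27, adjusted p = 0.212) for mt-Atp6 and -0.68 (SE 0.32, adjusted p = 0.290) for mt-Atp8. Of the 7 members with a 0 that could be fitted this way, 0 had an adjusted p below 0.05, against 0.902% of the 24937 transcripts in that fit, and 2, mt-Atp6 and mt-Co3, had an unadjusted p below 0.05, against 20.5%.

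The rRNA genes code for the small (mt-Rnr1, 12S) and large (mt-Rnr2, 16S) ribosomal subunits and lie next to each other near the start of the main precursor, with mt-Tv between them. For mt-Rnr2, FPKM was 2368, 2803, 4359.6 and 4439 at PN21 and 539, 1816, 603 and 2403 at PN98. Of the PN98 mice, 3 were below every PN21 mouse, and the other, m125, lay just above m1. The mean was 3492 ± 1063 at PN21 and 1340 ± 920 at PN98 (SD, n = 4), and the log2 fold change of -1.63 (SE 0.55, adjusted p = 0.170) was the lowest among the members. For mt-Rnr1, FPKM was 869, 953, 1769 and 1592 at PN21 and 385, 1396, 419 and 1804 at PN98, so m125 was the highest of all mice and m35 the lowest. The mt-Rnr1 log2 fold change was -0.63 (SE 0.58, adjusted p = 0.519).

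Ratios between members of the same mouse cancel the scaling of the library. Of the 6 pairs compared, mt-Rnr1 to mt-Rnr2 and mt-Nd1 to mt-Rnr2 did not overlap between the ages. Neither had an adjusted p below 0.05, and the share of pairs of other transcripts that do not overlap was not computed. The ratio of mt-Rnr1 to mt-Rnr2 was 0.367, 0.340, 0.406 and 0.359 in the PN21 mice and 0.714, 0.768, 0.695 and 0.751 in the PN98 mice. The ages did not overlap, and the mice of one age were close together although mt-Rnr2 itself ranged 4.46-fold between the PN98 mice. The mean log2 ratio rose by 0.99 (SE 0.06) from -1.45 ± 0.11 to -0.45 ± 0.07 (SD, n = 4). The two-sided exact permutation p was 0.0286, the smallest that 4 against 4 mice allow, and the adjusted p was 0.0857 over 6 pairs. With the other 4 pairs at higher p, the adjusted p of these pairs could not have been lower. An adjusted p above 0.05 therefore does not decide whether the ratio differed. The ratio of mt-Nd1 to mt-Rnr2, genes separated by the tRNA gene mt-Tl1, was 2.19, 2.68, 1.25 and 1.14 at PN21 and 4.998, 4.37, 6.70 and 3.91 at PN98. These values did not overlap either, with a difference in mean log2 ratio of 1.53 (SE 0.35), exact permutation p = 0.0286 and adjusted p = 0.0857. Both ratios hold mt-Rnr2, so they are not independent, and the pairs were chosen with earlier results of these data known.

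**Figure D3:**
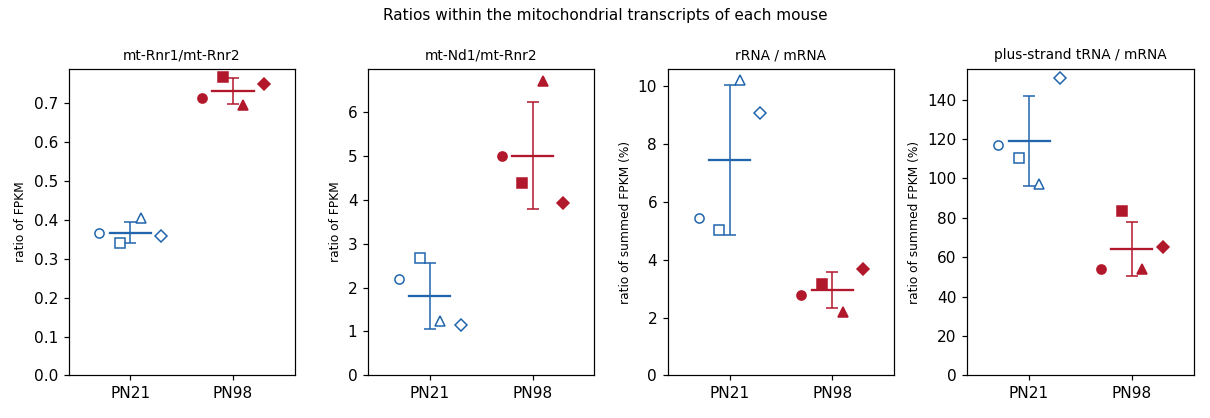
Ratios of FPKM within each mouse at PN21 (open blue) and PN98 (filled red), with the mean as a line and the SD as an error bar (n = 4). From left to right: mt-Rnr1 over mt-Rnr2, mt-Nd1 over mt-Rnr2, the summed FPKM of both rRNA genes as a percentage of the 9 protein genes, and that of the 11 plus-strand tRNA genes. In each panel the 4 PN98 mice lie apart from the 4 PN21 mice, with mt-Rnr1 over mt-Rnr2 at 0.340 to 0.406 against 0.695 to 0.768. The panels share mt-Rnr2 or the sum of the 9 protein genes and are not independent.

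The other 4 pairs, which set that limit, overlapped between the ages. The ratio of mt-Nd4l to mt-Nd4, which overlap on the same strand, was 0.401, 0.404, 0.452 and 0.293 at PN21 and 0.438, 0.404, 0.376 and 0.397 at PN98, with a difference in mean log2 ratio of 0.08 (SE 0.14, exact permutation p = 0.800, adjusted p = 0.914). In this pair the spread at PN21 came mainly from m145. For mt-Nd6 over mt-Nd5, which lie on opposite strands, the ratio was 4.17, 3.55, 3.03 and 6.79 at PN21 and 4.23, 2.69, 3.72 and 3.50 at PN98, and the mean log2 ratio differed by -0.26 (SE 0.29, exact permutation p = 0.486, adjusted p = 0.914). For mt-Nd6 over mt-Cytb it ranged from 0.720 to 1.87 at PN21 and from 0.739 to 1.40 at PN98, with a difference of -0.03 (SE 0.36, exact permutation p = 0.914, adjusted p = 0.914). For mt-Atp8 over mt-Atp6, measured in 4 mice at PN21 and in m35 and m114 at PN98, it was 0.941, 0.737, 0.928 and 0.636 at PN21 and 1.02 and 0.725 at PN98, where the exact permutation p of 0.667 cannot go below 0.0667 and was 0.914 after adjustment.

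Summed over both genes, rRNA FPKM was 5.42%, 5.03%, 10.2% and 9.08% of that of the 9 protein genes at PN21 and 2.78%, 3.17%, 2.20% and 3.66% at PN98. The ages did not overlap. In every mouse mt-Rnr2 was the larger part of the rRNA sum, so this ratio is not independent of the pair ratios with mt-Rnr2. The share of other sums that do not overlap was not computed. No test was made on such class sums, since their members had been chosen with earlier results known. Mature mitochondrial rRNAs carry at most very short A tails, and the libraries were selected for poly(A), so these values describe the rRNA captured by that selection and not the rRNA content of the tissue.

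The tRNA genes are 59 to 75 bases long, shorter than the reads of these libraries, so their FPKM rests on a length correction that is not comparable with that of the mRNAs, and their values are compared only between mice. Of the 22 tRNA genes, 18 were above 0 in every mouse. Plus-strand tRNA genes were lower at PN98 on average in 10 of 11 cases, and minus-strand tRNA genes in 2 of 7, against 63.5% of all transcripts tested. The minus-strand count depended on the mice, with 4 of 7 lower when m1, m106 or m125 was left out and 6 of 7 without both m106 and m125, an alternative added after the data were seen, where all 11 plus-strand genes were lower. Of the 18, 0 had an adjusted p below 0.05 in limma, against 1.33% of all transcripts tested. Of the same 18, 1 had an unadjusted p below 0.05, against 21.7% of all transcripts tested. For mt-Tr (arginine), FPKM was 1705, 2499, 1925 and 2272 at PN21 and 254, 1400.1, 638 and 1369 at PN98. All PN98 mice lay below all PN21 mice, which held for no other of the 29 members above 0 in all mice and, in either direction, for 14.2% of transcripts. The mt-Tr log2 fold change was -1.48 (SE 0.55, adjusted p = 0.195).

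Both leucine tRNA genes were lower in 3 of 4 PN98 mice than in any PN21 mouse. For mt-Tl1, which follows mt-Rnr2 directly, FPKM was 13700, 10225, 10128 and 9705 at PN21 and 3103, 8749, 2745 and 11652 at PN98, and the log2 fold change was -0.997 (SE 0.50, adjusted p = 0.278). For mt-Tl2 it was 5094, 7026, 4812 and 10912 at PN21 and 1456, 6835, 2891 and 3895 at PN98, with -1.02 (SE 0.50, adjusted p = 0.272). In mt-Tl1 the highest PN98 mouse was m125, and in mt-Tl2 it was m106. The lysine gene mt-Tk had 4294, 3948, 3295 and 8524 at PN21 and 1339, 4685, 1008 and 3862 at PN98, and the log2 fold change was -1.07 (SE 0.58, adjusted p = 0.306). For mt-Th (histidine), values were 3319, 9716, 3785 and 6575 at PN21 and 833, 6754, 1812 and 4059 at PN98. The mt-Th log2 fold change was -1.07 (SE 0.69, adjusted p = 0.373). In mt-Tk and mt-Th m35 and m114 were below every PN21 mouse, while m106 and m125 lay within the PN21 range.

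The isoleucine, methionine and glutamine genes form a run behind mt-Nd1, and here the PN98 mice were farthest apart. For mt-Ti, FPKM was 3335, 3763, 5393 and 5215 at PN21 and 856, 6589.8, 469 and 5568 at PN98, a 14.1-fold range. For mt-Tm it was 2859, 4865, 1856 and 5946 at PN21 and 389, 3161, 1758 and 4669.7 at PN98. For mt-Tq, on the minus strand, it was 4689, 4762, 3985 and 12863 at PN21 and 1191, 9751, 798 and 9089 at PN98. In all 3 genes m35 and m114 were below every PN21 mouse, and the log2 fold changes of -1.15 (SE 0.89, adjusted p = 0.448), -0.98 (SE 0.80, adjusted p = 0.469) and -0.94 (SE 0.94, adjusted p = 0.542) had wide errors.

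The glycine gene mt-Tg had 10154, 13094, 11070 and 13857 FPKM at PN21 and 2542, 16335, 4467 and 10854 at PN98, and the log2 fold change was -0.84 (SE 0.57, adjusted p = 0.395). For mt-Ts2 (serine), FPKM was 22502, 21859, 12631 and 33607 at PN21 and 4796, 23566, 7553 and 22643 at PN98, with -0.86 (SE 0.60, adjusted p = 0.402). In both genes m35 and m114 were below every PN21 mouse. For mt-Tw (tryptophan), values were 2550, 3057, 2366 and 1861 at PN21 and 1805, 4237, 1255 and 4326 at PN98, and the log2 fold change was 0.07 (SE 0.44, adjusted p = 0.934). For mt-Tt (threonine), they were 324, 2402, 1051 and 1613 at PN21 and 555, 2294, 558 and 1816 at PN98, with -0.01 (SE 0.76, adjusted p = 0.996). The PN98 values of mt-Tw lay on both sides of the PN21 values, and those of mt-Tt inside the PN21 range.

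Summed over the 11 plus-strand tRNA genes, FPKM was 117%, 110%, 97.1% and 151% of that of the 9 protein genes at PN21 and 53.9%, 83.5%, 54.1% and 65.1% at PN98. The ages did not overlap in this ratio, nor in that of the rRNA genes, but both ratios divide by the same sum of 9 genes. How often other such ratios do not overlap was not computed. Among single transcripts tested, 14.2% had FPKM that did not overlap between the ages. Because the length correction of tRNA genes is not comparable with that of mRNAs, the ratio compares mice. It is no measure of tRNA against mRNA amount.

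The minus-strand tRNA genes differed widely in listed FPKM, and mt-Te held the highest of the 18 tRNA genes above 0 in every mouse. For mt-Te (glutamate), FPKM was 185888, 305299, 171236 and 364034 at PN21 and 155541, 399139, 191767 and 411114 at PN98, and the log2 fold change was 0.12 (SE 0.42, adjusted p = 0.877). For mt-Tc (cysteine), it was 21869, 39183, 48740.1 and 53906 at PN21 and 47159, 79852, 22994 and 86967 at PN98, and the log2 fold change was 0.44 (SE 0.49, adjusted p = 0.592). In both genes m106 and m125 were the highest of all mice. For mt-Ty (tyrosine), it was 7772, 10808, 12302 and 21152 at PN21 and 9671, 22270, 6622 and 25954 at PN98, and the log2 fold change was 0.19 (SE 0.52, adjusted p = 0.833). For mt-Tn (asparagine), it was 2199.8, 2928, 3834 and 5988 at PN21 and 3639.7, 6744, 2343 and 8859.6 at PN98, with 0.45 (SE 0.50, adjusted p = 0.585). Both showed m106 and m125 above every PN21 mouse. The alanine gene mt-Ta had 2178, 2708, 2077 and 1147 at PN21 and 1401, 2116, 938 and 3008 at PN98, with -0.19 (SE 0.43, adjusted p = 0.796). For mt-Tp (proline), it was 19105, 23909, 13879 and 17244 at PN21 and 17120.2, 18415, 21190.4 and 57675 at PN98, with 0.45 (SE 0.42, adjusted p = 0.515). In mt-Ta the ages overlapped, and in mt-Tp m125 stood alone above the other 7 mice.

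**Figure D4:**
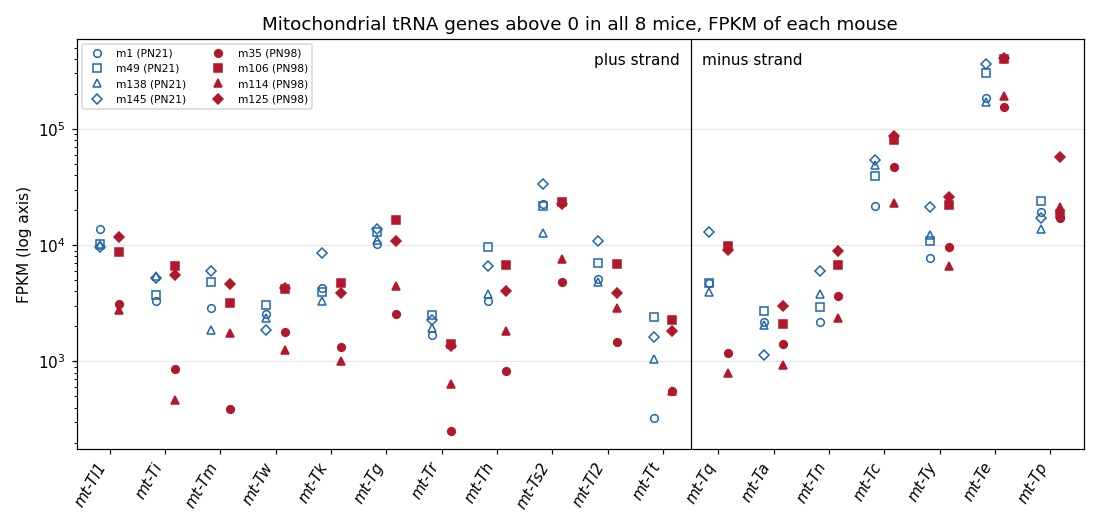
FPKM on a log axis (y) of the 18 tRNA genes above 0 in all 8 mice (x, plus strand left and minus strand right) in each mouse, with open blue symbols for PN21 and filled red symbols for PN98. Among plus-strand genes m35 and m114 lie below most PN21 mice, and mt-Tr is the gene in which all PN98 mice lie below all PN21 mice.

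In 4 tRNA genes values of 0 were listed. The serine gene mt-Ts1 had 508997, 728643, 589028 and 1086570 FPKM at PN21 and 398384, 0, 532575 and 0 at PN98, with the same zeros as mt-Co1, and with 0 as missing its log2 fold change was -0.60 (SE 0.38, adjusted p = 0.395). The aspartate gene mt-Td had 94.0, 42.3, 40.7 and 48.0 at PN21 and 35.8, 197, 0 and 207 at PN98, and with 0 as missing its log2 fold change was 1.10 (SE 0.71, adjusted p = 0.390). The valine gene mt-Tv, between the rRNA genes, had 68.1, 184, 88.4 and 209 at PN21 and 0, 1018, 117 and 539 at PN98, with 1.70 (SE 0.82, adjusted p = 0.289). In mt-Td and mt-Tv, m106 and m125 exceeded every PN21 mouse. The phenylalanine gene mt-Tf was listed above 0 in m145 (227 FPKM) and m125 (97.8 FPKM) alone and was not fitted.

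Translation and transcription of mitochondrial genes depend on proteins coded in the nucleus, and these were compared at the level of genes, with FPKM summed over transcripts and limma on log2(FPKM + 1) over 16089 genes. Of 129 nuclear genes for mitochondrial gene expression and the respiratory complexes, 4 were lower at PN98 with an adjusted p below 0.05 and 0 were higher, against 5.25% of all genes tested, 2.92% lower and 2.33% higher. The median log2 fold change of all genes was -0.21. The list of 34 genes for mitochondrial transcription and RNA handling also held Polg, Polg2, Twnk, Ssbp1 and Mgme1, which serve mitochondrial DNA. Of all 16089 genes tested, 10774 had a log2 fold change below 0. Of the 34 listed genes, 1 fell, 30 had a log2 fold change below 0, and the median was -0.34. The one that fell was Ptcd2, a pentatricopeptide repeat protein of mitochondrial RNA, with 19.6, 31.3, 22.9 and 19.9 FPKM at PN21 and 12.8, 14.4, 12.2 and 12.98 at PN98 (log2 fold change -0.77, SE 0.18, adjusted p = 0.0486), and this call was lost under both scalings to nuclear genes and with a pseudocount of 0.1. Of 17 mitochondrial aminoacyl-tRNA synthetases, which load tRNAs with amino acids, 2 fell and the median was -0.25. These were Cars2, for cysteine, with 17.7 to 23.0 FPKM at PN21 and 7.81 to 10.5 at PN98 (log2 fold change -1.02, SE 0.15, adjusted p = 0.0123), and Sars2, for serine, with 8.32 to 9.77 at PN21 and 3.74 to 4.98 at PN98 (log2 fold change -0.90, SE 0.14, adjusted p = 0.0144). In both genes the ages did not overlap, but they were named for their low adjusted p in the same values, so this adds no support. The count of 4 rested on single mice, with 0 of 129 left without m106 and 12 of 129 without m35.

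The central factors of the machinery did not pass the test. The mitochondrial RNA polymerase gene Polrmt had 31.6, 39.3, 25.0 and 43.9 FPKM at PN21 and 23.2, 21.4, 13.9 and 20.7 at PN98 (log2 fold change -0.78, SE 0.23, adjusted p = 0.0899), with all PN98 mice below all PN21 mice. Among single transcripts tested, 14.2% did not overlap between the ages in either direction, and no such share was computed over genes. Tfam, the factor that packs and starts transcription of mitochondrial DNA, had 49.1 to 63.1 FPKM at PN21 and 32.1 to 46.2 at PN98 (log2 fold change -0.48, SE 0.17, adjusted p = 0.133). Lrpprc, which with Slirp stabilises mitochondrial mRNAs, had 22.6, 30.4, 20.7 and 19.4 at PN21 and 12.5, 30.7, 15.99 and 28.1 at PN98 (log2 fold change -0.16, SE 0.31, adjusted p = 0.753). As in the mitochondrial mRNAs, m106 and m125 lay above m114 and m35, which held in 11.8% of transcripts tested. Here m106 was above m125, whereas m125 was the highest mouse in 8 of the 9 mitochondrial mRNAs tested. Slirp had 80.6 to 165 FPKM at PN21 and 78.8 to 110 at PN98 (log2 fold change -0.36, SE 0.27, adjusted p = 0.398).

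The nuclear partners in the respiratory complexes had medians below that of the 9 mitochondrial protein genes. Of 36 nuclear subunits of complex I tested, 36 had a log2 fold change below 0 and 0 passed the limma test (8 at an unadjusted p below 0.05), with a median of -0.54. Of all 16089 genes tested, 10774 had a log2 fold change below 0 and 4374 an unadjusted p below 0.05 in limma. The medians were -0.72 over 9 subunits of complex III, -0.62 over 15 of complex IV and -0.62 over 18 of complex V, against 0.09 for the 9 mitochondrial protein genes above 0 in all mice and -0.21 for all genes. The 4 mitochondrial protein genes with a 0 lay between -0.78 and -0.38, and the median of the 9 turned to -0.14 without m106 and to -0.18 without m125. The one that fell among these was Cox6b2, a subunit isoform of complex IV, with 10.5 to 19.4 FPKM at PN21 and 4.55 to 8.01 at PN98 (log2 fold change -1.24, SE 0.24, adjusted p = 0.0259). Summed FPKM of the complex I subunits was 12076, 14239, 8708 and 17111 at PN21 and 5922, 9222, 8256 and 13958 at PN98. The highest PN98 mouse was m125 and the lowest m35, as for the mitochondrial protein genes, while m106 was near the PN21 minimum in nuclear subunits and above all PN21 mice in mitochondrial protein genes. The lists were fitted on different scales, log2(FPKM) per transcript and log2(FPKM + 1) per gene, and the difference between them was not tested.

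Markers of several cell types also differed in level between the mice. Of the 6 brown adipocyte markers, none was at 0 in all mice, and their summed FPKM was 3035 to 6457 at PN21 and 370, 2412, 1014 and 4225 at PN98, in the order m35, m106, m114 and m125. Ucp1 was 544, 650, 586 and 559 FPKM at PN21 and 7.41, 278, 56.3 and 356 at PN98 (log2 fold change -2.81, SE 1.07, adjusted p = 0.149), so m106 and m125 again stood above m35 and m114, but here below every PN21 mouse. Other markers of this list differed in level in these mice, with Cidea at 721 FPKM in m106 and 1064 in m125 against at most 631 at PN21, and Elovl3 at 55.9 and 54.1 against at most 6.91, while Cox7a1 at 415 and 748 was below every PN21 mouse. None of the 6 passed the test. The 9 skeletal muscle markers matched of 10, none at 0 in all mice, summed to 12.03 to 530 FPKM at PN21 and to 981, 3320, 1158 and 485 at PN98, so m106 was the highest and m125 the lowest PN98 mouse. Lymphocyte markers, 9 matched of 10, summed to 404 to 965 FPKM at PN21 and to 903, 174, 56.1 and 17.4 at PN98. The 6 adipocyte markers summed to 12358 to 23597 FPKM at PN21 and to 33188 to 43832 at PN98, with Cidec and Adipoq higher at PN98. Blood markers, 4 globin genes, summed to 8391 to 18062 at PN21 and 3667 to 5724 at PN98 and all 4 passed the test. The 5 epithelium markers summed to 1.87 to 27.2 FPKM at PN21 and 0.211 to 1.11 at PN98. Of the 4 that were tested, Epcam alone passed and was lower at PN98 (log2 fold change -1.16, limma adjusted p = 0.0422). Of the skeletal muscle markers, Atp2a1 alone passed and was higher (log2 fold change 4.20, limma adjusted p = 0.0405). No lymphocyte marker passed the test. The part of each of these cell types in the mitochondrial values was not tested.

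**Figure D5:**
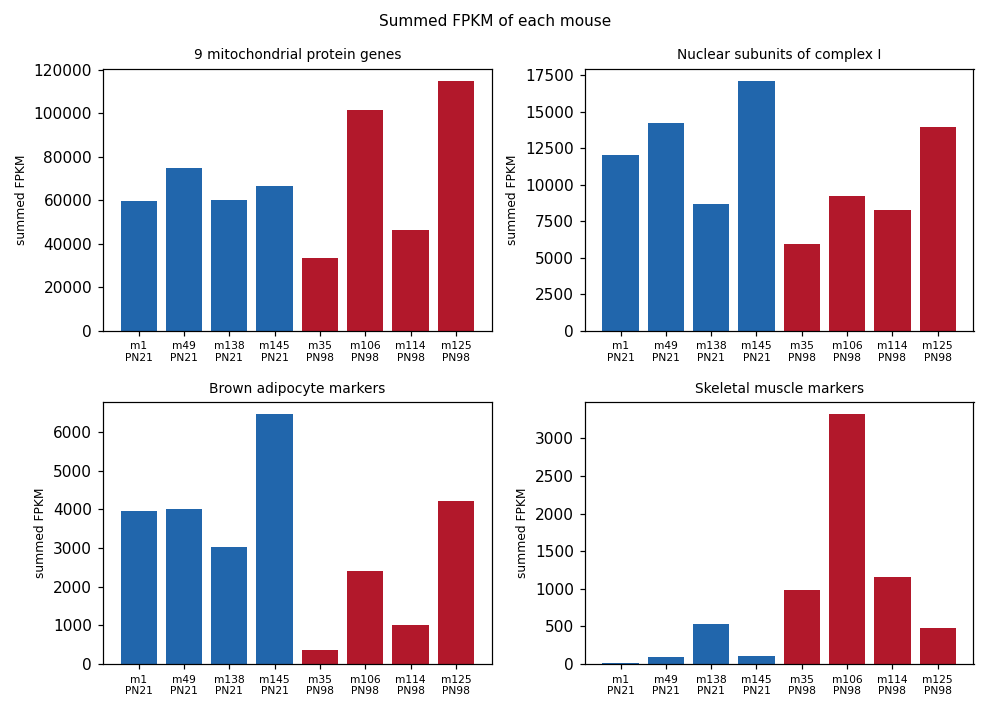
Summed FPKM (y, linear from 0) of each mouse (x, blue PN21 and red PN98) for the 9 mitochondrial protein genes above 0 in all mice, the nuclear subunits of complex I, the brown adipocyte markers and the skeletal muscle markers. Mitochondrial protein genes were at 33241, 101335, 46508 and 114834 in m35, m106, m114 and m125, brown adipocyte markers followed the same order, and skeletal muscle markers were highest in m106.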

How the data were processed

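The authors sequenced poly(A)-selected RNA of ING WAT (4 PN21 and 4 PN98 mice) in paired-end reads. Per the labels and the study's methods, reads were mapped to mm10 with STAR 2.3.0 and quantified with Cufflinks 2.1.1 on a Gencode annotation, and FPKM per Ensembl transcript, with an average, a standard deviation and a score, were deposited. The score, as deposited, is the log10 of the average plus 1 over the standard deviation plus 1, and it was used with both to restore lost decimal marks. The restoration took the deposited average and standard deviation to rest on more values than those of the mice listed here. Each reading had to allow for these further values, which are not among the columns. A mark could be read in more than 1 way in 40380 of 91969 transcripts, a single reading was found for 40321, and 59 were left out. All 5016 transcripts compared with the authors' second table were equal. Of the 37 mitochondrial transcripts, 12 had such a cell, all with a single reading. The second table also holds the authors' own fold changes and p-values, which were not used, and 0 columns of mouse values were left unused.

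Transcripts were assigned to genes with GENCODE vM21. Transcripts above 0 in all 8 mice with a mean over 2 FPKM at PN21 or PN98 were compared with limma 3.58.1 in R 4.3.3, with no pseudocount. Members with a 0 were fitted with 0 as missing where each age had at least 2 values. Genes with a mean of at least 1 FPKM were compared on log2(FPKM + 1). Ratios were tested by exact permutation, two-sided, with all 70 ways to divide 8 mice into 4 and 4. The fit was tested on simulated data. Members and lists were chosen with earlier results of these data known. Named were all 37 members, nuclear list genes with an adjusted p below 0.05 (at most 4 a list), and Lrpprc, Slirp, Tfam, Polrmt and Ucp1. Alternatives covered pseudocounts, filters, 3 scalings, weights of the mice and leaving out each mouse.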

Additional observations from a re-analysis of the deposited data

Results flagged for a closer look

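Each age of each member above 0 in all mice and each age of each ratio was looked at for a mouse far from the other 3 of its age, by Dixon's criterion (the gap to the nearest mouse over the whole range, at the 95% level). This was met in 4 of 69 groups, and chance alone flags about 1 in 20 such groups. At PN21, mt-Tl1 was 13700 FPKM in m1 against 9705 to 10225 in the other mice, mt-Nd1 was 7515 in m49 against 5051 to 5435, and mt-Tq was 12863 in m145 against 3985 to 4762. At PN98, mt-Tp was 57675 FPKM in m125 against 17120 to 21190.4. No explanation was tested for these values.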

How the results depend on the processing

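The number of members with an adjusted p below 0.05 was 0 under all 15 alternatives for members above 0 in all mice and under all 10 for members with a 0. Of 495 log2 fold changes of single members under an alternative, 440 kept their direction and 55 changed it, in 18 of 36 members, none of which had passed the test. The other 18 members kept their direction under every alternative run. Among these were mt-Rnr1, mt-Rnr2, mt-Tr and both leucine tRNA genes, all lower, and mt-Tp, which was higher (0.051 to 0.73). For mt-Rnr2 the range was -2.56 to -1.25 (limma adjusted p 0.0829 to 0.606). The 0.606 came from scaling to the mitochondrial protein genes, where 19 of all transcripts passed. There the unadjusted limma p of mt-Rnr2 was 0.0041, against 0.020 in the main fit. With a median of ratios over nuclear transcripts the log2 fold change turned to 0.11 for mt-Nd1, 0.021 for mt-Ta, 0.14 for mt-Nd3 and 0.20 for mt-Tt. With summed FPKM over nuclear genes it turned to 0.17 for mt-Nd1, 0.084 for mt-Ta, 0.00046 for mt-Co2, 0.20 for mt-Nd3 and 0.26 for mt-Tt. With weights of the mice it turned to 0.083 for mt-Nd1, 0.26 for mt-Nd3 and 0.64 for mt-Tt. Without m106 and m125, chosen after seeing the data, it turned to -0.64 for mt-Nd2, -0.32 for mt-Nd4l, -0.41 for mt-Nd4, -0.39 for mt-Nd5, -0.46 for mt-Nd6, -0.71 for mt-Cytb, -0.69 for mt-Tw, -0.26 for mt-Tn, -0.23 for mt-Tc, -0.60 for mt-Ty and -0.50 for mt-Te, and the log2 ratio difference of mt-Nd6 to mt-Cytb turned to 0.25. With values of 0 kept on log2(FPKM + 1), mt-Tv turned to -0.47 and mt-Td to -0.62, by the weight of a single 0 each. Leaving out 1 mouse at a time gave -0.37 to 0.23 for mt-Nd1, -0.14 to 0.51 for mt-Nd2, -0.40 to 0.28 for mt-Nd3, -0.18 to 0.28 for mt-Nd6, -0.19 to 0.46 for mt-Cytb, -0.57 to 0.041 for mt-Co2, -0.19 to 0.41 for mt-Tw, -0.46 to 0.10 for mt-Ta, -0.11 to 0.55 for mt-Ty, -0.095 to 0.37 for mt-Te and -0.58 to 0.38 for mt-Tt. Other causes of these turns were not tested.

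Leaving out 1 mouse gave log2 ratio differences of -0.0053 to 0.18 for mt-Atp8 to mt-Atp6, -0.053 to 0.16 for mt-Nd4l to mt-Nd4 and -0.20 to 0.26 for mt-Nd6 to mt-Cytb. The difference stayed at 0.94 to 1.04 for mt-Rnr1 to mt-Rnr2 and at 1.33 to 1.77 for mt-Nd1 to mt-Rnr2 over 10 alternatives, with adjusted p 0.0857 to 0.200, where 6 pairs and these numbers of mice leave little room below. The 4 nuclear list genes became 0 to 12 when 1 mouse was left out and 2 without m106 and m125. The number of all transcripts with an adjusted p below 0.05, 307, lay between 19 and 1751. Without m35 or m114 no value could be fitted for mt-Co1, mt-Co3, mt-Atp6, mt-Atp8 and mt-Ts1, and none for the ratio of mt-Atp8 to mt-Atp6. No paired analysis was possible because mouse numbers are not shared between the ages. With no read counts, no counting error could be given.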
